A study of Mus musculus with 6 samples.

Results

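A set of 9 red cell genes was examined in the auditory nerve of young adult mice: the adult globins Hba-a1, Hba-a2, Hbb-b1 and Hbb-bt, the globin chaperone gene Ahsp, the heme synthesis gene Alas2 and the membrane genes Slc4a1, Epb42 and Sptb. They were chosen by symbol from a table of 17666 genes, with their earlier measured difference between the labels known, so that difference is given here as a description and not as a test. Of the 9 symbols, 8 had a row and no row repeated another member's; Ahsp was not analysed here. RNA sequencing compared 3 C57 mice with a knockout of complement factor B with 3 wildtype C57 mice, all aged 1.5 to 2.5 months. Nerves were microdissected, and both cochleas of a mouse (2 per sample) went into its library. The labels name neither the allele nor the substrain. The values are the authors' normalized counts, scaled per sample and rounded, with totals per library of 38675077 to 41496282. Scaling fixed these totals, and the sequencing depth is unknown. Cfb, the gene of factor B, was at 336, 351 and 376 normalized counts in libraries labelled knockout, against 55, 39 and 116 in those labelled wildtype. The targeted gene thus went against the labels, and all directions below are between libraries as labelled; knockout and wildtype libraries mean those so labelled.

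Red cells carry oxygen on hemoglobin, a tetramer of alpha and beta globin chains, each of which holds a heme. Maturing red cells make globin and heme in large amounts, then lose their nucleus and leave the marrow with a remnant of that RNA. The membrane is held by a skeleton of spectrin, tied by ankyrin and protein 4.2 to the anion exchanger band 3. A dissected nerve holds blood in its vessels and can border on marrow in the bone around it. Spectrins, ankyrins and their partners also form the submembrane skeleton of axons, as products of related genes and in part of the same genes.

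The adult globin genes lie in clusters of close copies, and the sequences before their start sites are shown because the members that were lower together can be compared there. Hba-a1 (32283511 to 32284465) and Hba-a2 (32296489 to 32297298) lie on chromosome 11, plus strand, of GRCm38, the assembly also called mm10, in GENCODE release M21. Hbb-bt (103812524 to 103813996) and Hbb-bs (103826534 to 103828096) lie on chromosome 7, minus strand. Alas2 lies on chromosome X (150547375 to 150570638), Slc4a1 on chromosome 11 (102348824 to 102366203), Epb42 on chromosome 2 (121017891 to 121037072) and Sptb on chromosome 12 (76580488 to 76710547). C57BL/6 strains carry the beta haplotype whose adult genes are called Hbb-bs and Hbb-bt, while Hbb-b1 and Hbb-b2 name the adult genes of another haplotype. The table held rows under all 4 names. The row of Hbb-b2 was identical to that of Hbb-bt and is counted once. No position is given here for Hbb-b1.

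The 250 bases before the RefSeq start of each gene (GRCm38.p6) are printed 5′ to 3′ on the gene's strand. Capitals mark the letters GATAA, the core read by GATA factors, CACCC, the box read by Krüppel-like factors such as that of the erythroid lineage, CCAAT and TATAA, each searched on both strands, with touching matches merged.
Hba-a1, chr11:32283422-32283671, plus strand: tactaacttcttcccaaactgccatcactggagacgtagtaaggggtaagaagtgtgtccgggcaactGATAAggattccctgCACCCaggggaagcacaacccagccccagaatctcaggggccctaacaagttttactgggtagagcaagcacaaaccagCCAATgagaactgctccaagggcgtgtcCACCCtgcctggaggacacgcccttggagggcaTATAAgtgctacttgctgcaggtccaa
Hbb-bs, chr7:103827929-103828178, minus strand: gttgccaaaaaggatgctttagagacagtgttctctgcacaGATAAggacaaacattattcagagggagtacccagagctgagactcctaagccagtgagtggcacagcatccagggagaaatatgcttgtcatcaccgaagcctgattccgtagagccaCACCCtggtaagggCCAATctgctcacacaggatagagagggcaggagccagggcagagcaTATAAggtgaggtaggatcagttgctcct
Hbb-bt, chr7:103813924-103814173, minus strand: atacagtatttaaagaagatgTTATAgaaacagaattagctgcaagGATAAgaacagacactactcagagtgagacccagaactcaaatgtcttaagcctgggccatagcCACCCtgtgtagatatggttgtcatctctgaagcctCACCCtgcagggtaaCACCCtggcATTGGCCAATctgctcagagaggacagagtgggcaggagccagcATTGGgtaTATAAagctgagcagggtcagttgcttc
Alas2, chrX:150547167-150547416, plus strand: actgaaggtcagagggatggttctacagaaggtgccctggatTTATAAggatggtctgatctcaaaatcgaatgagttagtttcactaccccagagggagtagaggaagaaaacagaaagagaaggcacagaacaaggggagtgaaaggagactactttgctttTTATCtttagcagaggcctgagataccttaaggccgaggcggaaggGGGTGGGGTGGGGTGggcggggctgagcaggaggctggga
Epb42, chr2:121036878-121037127, minus strand: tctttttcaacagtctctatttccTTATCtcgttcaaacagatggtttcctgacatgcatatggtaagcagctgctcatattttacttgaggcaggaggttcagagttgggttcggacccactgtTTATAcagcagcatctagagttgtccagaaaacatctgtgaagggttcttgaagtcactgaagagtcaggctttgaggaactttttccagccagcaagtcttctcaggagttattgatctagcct
Sptb, chr12:76710548-76710797, minus strand: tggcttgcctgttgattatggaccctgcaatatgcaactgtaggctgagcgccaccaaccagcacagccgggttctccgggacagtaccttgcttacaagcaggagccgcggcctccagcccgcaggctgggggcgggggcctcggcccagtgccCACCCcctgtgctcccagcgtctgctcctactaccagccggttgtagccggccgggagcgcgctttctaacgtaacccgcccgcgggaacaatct

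The windows of Hba-a1 and Hba-a2, taken to 50 bases past the start, shared a run of 297 of 300 bases, so the second is not printed. Those of Hbb-bs and Hbb-bt shared no run longer than 14 bases. Within 250 bases before the start, all 4 of these globin genes held every motif, as did 0.968% of 32851 RefSeq promoters. TATAA lay 27 to 23 bases before the start in Hba-a1, 29 to 25 in Hbb-bs and 28 to 24 in Hbb-bt, on the gene's own strand. CCAAT lay 88 to 84 bases before the start in Hba-a1, 76 to 72 in Hbb-bs and 75 to 71 in Hbb-bt. Alas2 held each motif but CCAAT. Of the 4, Epb42 held the GATA core and the TATA letters, and Sptb the CACCC box alone. Over all promoters, GATAA was present in 22.6%, CACCC in 52.0%, CCAAT in 33.8% and TATAA in 22.8%. A match is a run of letters and not a measured site.

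The alpha globins were lower in every library labelled knockout. In these bulk samples, fewer red cells and less RNA per red cell cannot be told apart. In the libraries labelled knockout Hba-a1, which encodes alpha globin, was at 1081, 1151 and 975 normalized counts, against 3217, 3276 and 8097 in those labelled wildtype. The groups did not overlap, and wildtype replicate 3 stood 2.49 times above the mean of the other 2 wildtype libraries. Its mean was 1069 ± 88.6 in libraries labelled knockout and 4863 ± 2801 in those labelled wildtype (SD, n = 3 each). That is 4.55-fold lower, and the log2 difference was -2.04 (SE 0.35). Hba-a2, the second alpha globin gene, had 986, 1037 and 732 normalized counts in libraries labelled knockout, against 2406, 2675 and 6893 in those labelled wildtype. Its groups did not overlap either, and its mean was 4.35-fold lower (log2 difference -1.96, SE 0.39). Of all stretches of 50 bases in the Hba-a1 transcript, 67.5% also occur in that of Hba-a2, and 86.9% the other way round. The division of reads between the copies is therefore uncertain; Hba-a1 took 52.3%, 52.6% and 57.1% of the alpha sum in the libraries labelled knockout, and 57.2%, 55.0% and 54.0% in those labelled wildtype.

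With all 6 libraries the adult beta globin rows had larger log2 differences than the alpha rows. This order was not kept without knockout replicate 3 and wildtype replicate 3, an alternative chosen after seeing the data. There the log2 difference was -1.54 for Hba-a1, -1.33 for Hba-a2, -1.64 for Hbb-b1 and -1.49 for Hbb-bt. Hbb-b1, a beta globin row, was at 874, 891 and 567 normalized counts in libraries labelled knockout, against 2729, 2783 and 9273 in those labelled wildtype. Its groups did not overlap, and its mean was 6.34-fold lower (log2 difference -2.44, SE 0.48). Hbb-bt, an adult beta globin gene of the C57BL/6 haplotype, had 123, 67 and 29 normalized counts in knockout libraries, against 187, 352 and 1613 in libraries labelled wildtype. These groups were also separate, with knockout replicate 1 at 123 and wildtype replicate 1 at 187 as the nearest pair. The mean of Hbb-bt was 9.83-fold lower (log2 difference -2.91, SE 0.84), and the log2 difference was -2.03 without wildtype replicate 3 and -3.58 without wildtype replicate 1. Hbb-bs, the other adult beta globin gene of that haplotype, is not itself among the 9 symbols. It had 637, 524 and 305 normalized counts in libraries labelled knockout, against 1594, 1616 and 5558 in those labelled wildtype (log2 difference -2.38, SE 0.52). The ratio of Hbb-b1 to Hbb-bs was 1.64 ± 0.25 in libraries labelled knockout and 1.70 ± 0.03 in those labelled wildtype (SD, n = 3 each), so the ratio differed by less than its spread. Stretches of 50 bases shared with the other beta transcript made up 65.8% of Hbb-bs and 58.3% of Hbb-bt. Hbb-y, an embryonic beta-like globin, had 0, 3 and 4 normalized counts in knockout libraries, against 4, 5 and 8 in libraries labelled wildtype, values too low to set apart.

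**Figure D1:**
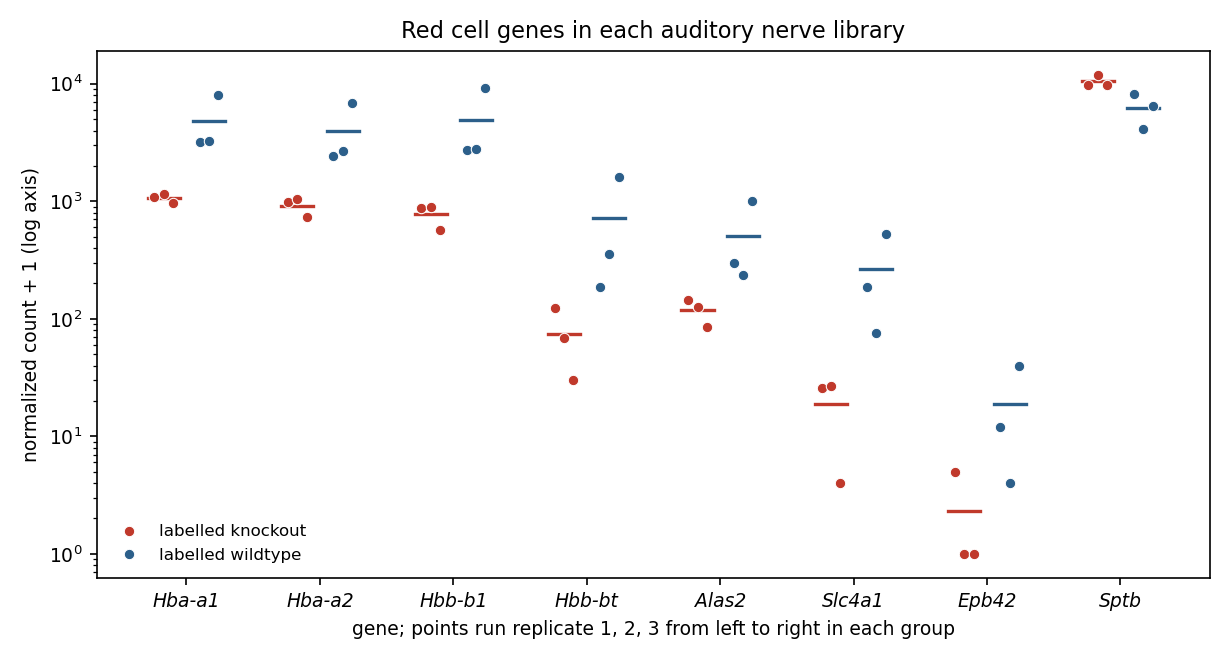
Normalized count plus 1 (log axis) of the 8 red cell genes with a row, in the 3 libraries labelled knockout (red, left) and the 3 labelled wildtype (blue, right); points are libraries and bars are group means. Of these genes, 6 are lower in every red library than in any blue one, Epb42 overlaps, and Sptb is higher in every red library.

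Summed over the distinct alpha and beta rows, globins took 0.00935%, 0.00897% and 0.00645% of the libraries labelled knockout, against 0.0253%, 0.0277% and 0.0758% of those labelled wildtype. The share was 5.20 times as high in the wildtype label on average, and 3.21 times without wildtype replicate 3. Globin was thus a minor part of every library. Within a library, the sum of alpha rows over the sum of beta rows does not depend on the scaling. The ratio itself was not used to choose the genes, but the member rows in both sums were chosen with their differences known. This ratio was 1.26, 1.48 and 1.89 in the libraries labelled knockout, against 1.25, 1.25 and 0.912 in those labelled wildtype. The nearest libraries of the 2 labels were thus at 1.26 and 1.25. The log2 difference was 0.44, and the exact permutation test, two-sided, gave p = 0.1, the smallest p that 3 against 3 allows. Because the member rows were chosen with their differences known, this p is a description and no support for a difference. Without knockout replicate 3 it was 0.28, and without wildtype replicate 3 it was 0.29, so single libraries set its size. Reads shared between the beta rows could be counted in more than 1 of them, and without the Hbb-bs row the log2 difference was 0.48.

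Alas2 encodes the erythroid form of the enzyme that starts heme synthesis. It was at 144, 126 and 84 normalized counts in libraries labelled knockout, against 295, 237 and 999 in those labelled wildtype. The groups did not overlap, and the mean was 4.32-fold lower (log2 difference -1.83, SE 0.54; -1.19 without wildtype replicate 3). Set against alpha globin, Alas2 had 69.7, 57.6 and 49.2 counts per 1000 alpha globin counts in libraries labelled knockout, and 52.5, 39.8 and 66.6 in those labelled wildtype. These ranges overlap, so the ratio did not separate the labels. The other 8 genes of heme synthesis, which most cells use, all had negative differences with a median of -0.21, against 0.006 over all genes. None passed by limma at an adjusted p of 0.05 and none was called in the authors' deposited table. Only 1, Urod, was lower at an unadjusted p under 0.05, as 9.20% of all genes were. Among the most abundant, the log2 difference was -0.36 for Fech, which inserts the iron, -0.16 for Alad and -0.24 for Urod, both enzymes of porphyrin assembly, and -0.22 for Alas1, the housekeeping counterpart of Alas2.

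Slc4a1, the gene of band 3, showed the largest fold among the 8. It was at 25, 26 and 3 normalized counts in libraries labelled knockout, against 184, 75 and 527 in those labelled wildtype. The groups did not overlap, and the mean was 14.6-fold lower (log2 difference -3.79, SE 0.94). Without knockout replicate 3, which had the 3 counts, the log2 difference was -2.88; it was -4.47 without wildtype replicate 2 and -3.07 without wildtype replicate 3, and -3.14 with a pseudocount of 8 in place of 1. Per 1000 alpha globin counts, Slc4a1 had 12.1, 11.9 and 1.76 in the libraries labelled knockout, and 32.7, 12.6 and 35.2 in those labelled wildtype, where replicate 2 lay close to the knockout values. Epb42, the gene of protein 4.2, was near the bottom of the table, with 4, 0 and 0 normalized counts in libraries labelled knockout and 11, 3 and 39 in those labelled wildtype. Its groups overlap, and its log2 difference of -2.86 (SE 1.03) was -2.02 without wildtype replicate 3 and -3.68 without wildtype replicate 2. At values this low the difference turned on the pseudocount, with -3.49 at 0.5 and -1.23 at 8 in place of 1.

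Sptb, the gene of erythroid beta spectrin, went the other way. It was at 9763, 11936 and 9762 normalized counts in libraries labelled knockout, against 8106, 4160 and 6409 in those labelled wildtype. The groups did not overlap, and the mean was 1.68-fold higher, 10487 ± 1255 in knockout libraries and 6225 ± 1979 in wildtype libraries (SD, n = 3 each), with a log2 difference of 0.80 (SE 0.24). Wildtype replicate 2 was the lowest, and without it the difference was 0.53. Wildtype replicate 3, the highest for the other 7 genes, lay between the other 2 wildtype libraries for Sptb, at 1.05 times their mean.

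**Figure D2:**
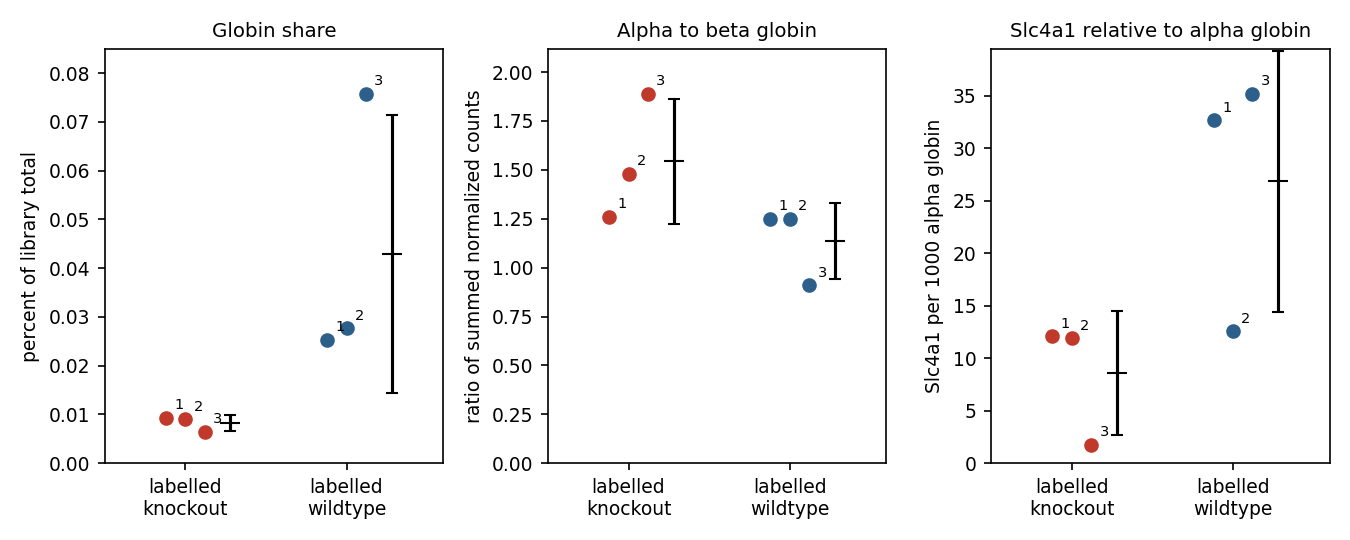
Globin share of the library total in percent (left), ratio of summed alpha to summed beta globin (middle) and Slc4a1 per 1000 alpha globin counts (right), for libraries labelled knockout (red) and wildtype (blue); numbers give the replicate, and black bars the mean and SD of 3 libraries. Wildtype replicate 3 has the highest share, 0.0758%, and the lowest alpha to beta ratio, 0.912.

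Levels were compared between genes per kb of the longest protein-coding GENCODE transcript. In the libraries labelled knockout the normalized counts per kb were 1658 ± 295 for Hba-a2, 1529 ± 127 for Hba-a1, 1009 ± 121 for Sptb, 778 ± 269 for Hbb-bs, 104 ± 67.3 for Hbb-bt, 57.9 ± 15.1 for Alas2, 3.96 ± 2.86 for Slc4a1 and 0.324 ± 0.561 for Epb42 (SD, n = 3). In the libraries labelled wildtype they were 7205 ± 4542 for Hba-a2, 6958 ± 4007 for Hba-a1, 4654 ± 3634 for Hbb-bs, 1020 ± 1110 for Hbb-bt, 599 ± 190 for Sptb, 251 ± 208 for Alas2, 57.6 ± 51.9 for Slc4a1 and 4.29 ± 4.59 for Epb42. The 2 alpha globins did not differ beyond their spread in either label. Sptb per kb stood above Hbb-bs in the mean of the libraries labelled knockout, with overlapping ranges, and below it in every library labelled wildtype. For each of these 8 genes the SD was larger in the libraries labelled wildtype.

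By limma on log2 values over all 17666 genes, none of the 8 members passed an adjusted p of 0.05, as 28 genes or 0.158% did. There were 7 members lower at an unadjusted p under 0.05, against 9.20% of all genes, and Sptb was higher, against 10.8%. In the authors' deposited table, Hba-a1, Hba-a2, Hbb-b1, Hbb-bt, Alas2 and Slc4a1 were called lower at a false discovery rate under 0.05, as 3.25% of genes with a rate were; 4.14% were called higher and no member was. Their folds in the authors' deposited table were 4.55, 4.35, 6.34, 9.85, 4.33 and 14.5. Sptb had a rate of 0.054 in the authors' deposited table, and Epb42 had none. Of the members, 6 were lower without overlap, against 14.9% of all genes, and 1 was higher without overlap, against 13.6%. These contrasts chose the members, and nothing further is read from the counts. Without wildtype replicate 3, limma passed Hba-a1 (log2 difference -1.61, adjusted p = 0.00346), Hba-a2 (-1.48, adjusted p = 0.0199) and Hbb-b1 (-1.85, adjusted p = 0.0199), when 2.37% of all genes passed, and 0.470% passed as lower. Over the alternatives tried the adjusted p of these 3 genes was otherwise above 0.05, except with knockout replicate 3 left out as well. The library left out was the highest for these same genes, and the contrast is the one that chose them. These passes are therefore a description and not a test.

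Among the other 22 genes of the red cell membrane and skeleton list, 0 passed by limma, 3 were lower and 2 higher at an unadjusted p under 0.05. Over all genes 9.20% were lower and 10.8% higher at that p, the shares to set beside each list count below. Calls in the authors' deposited table numbered 2 among the 22, with 1 gene lower and Ank1 higher. The median log2 difference was -0.14, with 13 of the 22 genes below 0 and 9 above, and it was 0.058 among those with a mean of at least 20. Rhd, of the Rhesus complex, had 7, 4 and 2 normalized counts in knockout libraries against 18, 17 and 32 in wildtype libraries, and Kel, a blood group protease, had 1, 3 and 2 in knockout libraries against 9, 4 and 13 in wildtype libraries. Both were named after their values were seen. Of the most abundant genes, Ank1, the gene of erythroid ankyrin, had 18559, 25730 and 26548 normalized counts in libraries labelled knockout, against 16471, 10084 and 8652 in those labelled wildtype, without overlap (log2 difference 1.05, SE 0.27). The difference was 0.20 for Add1, the adducin that caps actin, 0.11 for Tmod1, a cap of the other end, and -0.03 for Actb. Levels of Ank1 and Sptb thus shared their direction and not that of Slc4a1.

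Genes related to Sptb and Ank1 that serve tissues other than blood were set beside them. Of 14 such paralogs, 0 passed by limma, 6 were higher and 0 lower at an unadjusted p under 0.05. Calls in the authors' deposited table numbered 2, both higher, with Ank2 among them. Their median log2 difference was 0.47, against 0.006 over all genes. Sptan1, the alpha spectrin of nonerythroid cells, had 77857, 92232 and 89075 normalized counts in libraries labelled knockout, against 66721, 35505 and 60767 in those labelled wildtype (log2 difference 0.72, SE 0.27). Ank2, the broad neuronal ankyrin, had 69217, 76127 and 78060 in knockout libraries against 51461, 29380 and 35223 in wildtype libraries (0.98, SE 0.24). Sptbn1, the main nonerythroid beta spectrin, had a difference of 0.53 and Epb41l1, a neuronal relative of protein 4.1, of 0.61. Wildtype replicate 2 was the lowest library for Sptb, Sptan1, Ank2 and Sptbn1, while wildtype replicate 3 was the lowest for Ank1 and Epb41l1. Sptb per 1000 Sptbn1 counts was 178, 204 and 156 in libraries labelled knockout, and 167, 140 and 140 in those labelled wildtype. These ranges overlap.

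**Figure D3:**
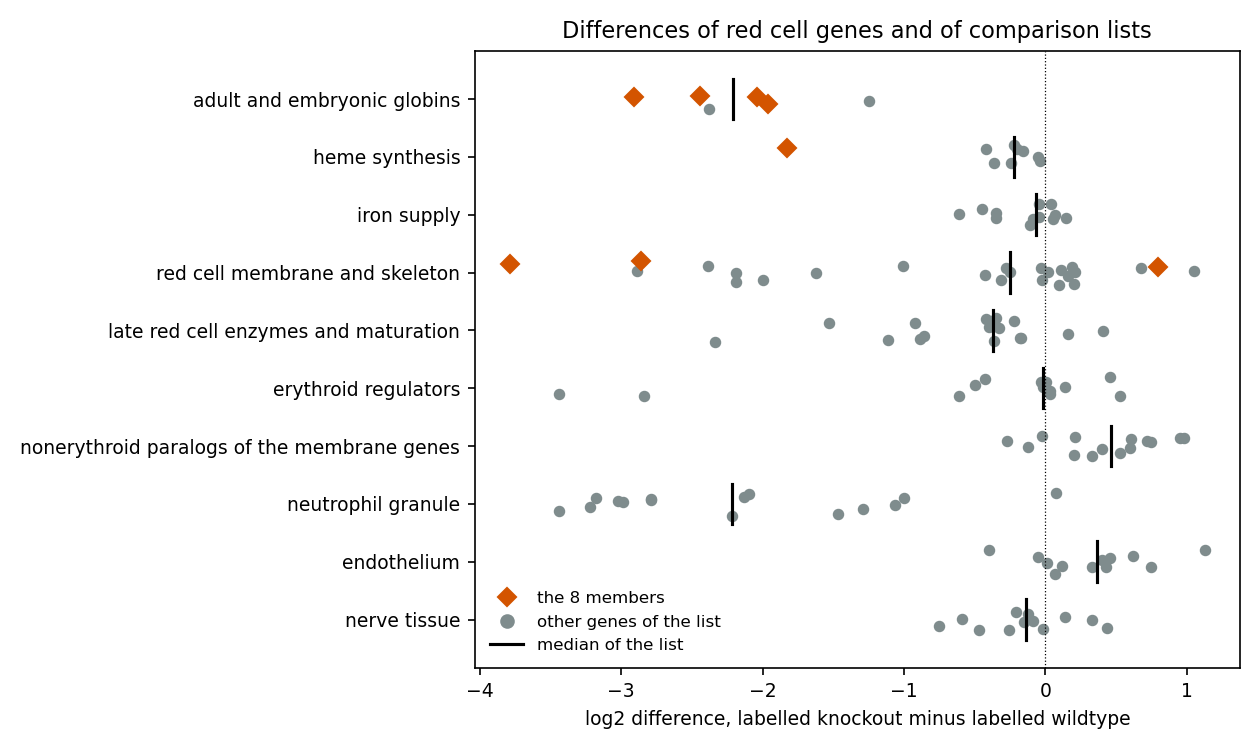
Log2 difference, libraries labelled knockout minus libraries labelled wildtype, of each gene in 10 lists; orange diamonds are the 8 members, grey points other genes and black lines list medians. Globins and neutrophil granule genes lie to the left with medians of -2.21 and -2.22, while the membrane list spreads from Slc4a1 at -3.79 to Ank1 at 1.05.

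Genes of iron supply had a median log2 difference of -0.065 over 12 genes, with 3 lower and 0 higher at an unadjusted p under 0.05, 0 passing by limma and Ncoa4, the receptor for turnover of ferritin, lower in the authors' deposited table. Tfrc, the transferrin receptor, differed by -0.35, the ferritin chains Fth1 and Ftl1 by -0.11 and -0.61, and the iron chaperone Pcbp1 by -0.35. Late red cell enzymes and maturation genes had a median of -0.37 over 17 genes. Of these 5 were lower and 0 higher at an unadjusted p under 0.05, and 0 passed by limma. The authors' deposited table called Prdx2, a peroxidase, 1.32-fold lower and catalase (Cat) 1.26-fold lower. Car2, a carbonic anhydrase, differed by -0.42, Bnip3l, which removes mitochondria from maturing red cells, by -0.36, and Mkrn1 by -0.22.

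Erythroid regulators had a median of -0.016 over 13 genes (0.031 without knockout replicate 2), with 0 passing by limma, 2 lower and 0 higher at an unadjusted p under 0.05, and 0 called in the authors' deposited table. The 2 were Gata1, the master transcription factor of red cells, and Hemgn, both named after their values were seen. Gata1 was listed at 0 in all 3 libraries labelled knockout and at 7, 6 and 22 in those labelled wildtype. Hemgn, a nuclear protein of red cell precursors, had 3, 0 and 4 normalized counts in knockout libraries against 11, 11 and 50 in wildtype libraries. Klf1, the erythroid Krüppel-like factor, had 18, 19 and 7 in knockout libraries against 25, 11 and 23 in wildtype libraries, which overlap. The abundant members are used in many tissues: the difference was 0.03 for Ldb1, -0.016 for Stat5b, 0.002 for Jak2 and 0.53 for Zfpm1. Of 10 genes that clear hemoglobin and heme, 0 passed by limma, and 3 were lower and 1 higher at an unadjusted p under 0.05, with a median of -0.19. Hmox1, the inducible heme oxygenase, was 1.68-fold lower and Lrp1, the receptor of heme bound to hemopexin among many ligands, 2.48-fold higher in the authors' deposited table. The heme transporter Slc48a1 differed by -0.45, Hmox2 by -0.15 and Blvra, which acts on the product of heme oxygenase, by -0.23. The 3 globins outside blood, Cygb (0.17), Mb (-0.52) and Ngb (-0.57), had overlapping groups, 0 passing by limma, 0 at an unadjusted p under 0.05 and 0 called by the authors.

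Markers of other cells were read in the same libraries. Neutrophil granule genes were lowest in knockout replicate 3 and highest in wildtype replicate 3, as the globins were. Their median log2 difference was -2.22 over 15 genes, with 14 below 0 and 0 passing by limma. Of these genes, 10 were lower at an unadjusted p under 0.05, against 9.20% of all genes. The authors' deposited table called 5 lower, against 3.25% of genes with a rate. The summed level of the 15 was 120 to 830 in libraries labelled knockout and 930 to 2799 in those labelled wildtype. Ctsg, a granule protease, was listed at 0 in knockout replicates 1 and 3. S100a9 had 70, 87 and 9 normalized counts in knockout libraries against 223, 257 and 581 in wildtype libraries, S100a8 had 54, 72 and 1 in knockout libraries against 159, 188 and 340 in wildtype libraries, and Ngp had 61, 77 and 3 in knockout libraries against 139, 228 and 492 in wildtype libraries. Ltf, at 460, 61 and 1 in knockout libraries against 103, 103 and 534 in wildtype libraries, overlapped. The part of marrow cells in the globin difference was not tested. B lymphocyte genes had a median of -0.82 over 10 genes and platelet genes of -0.48 over 13. Their sums overlapped, at 3892 to 4277 in knockout libraries against 3929 to 4582 in wildtype libraries for B lymphocytes and at 955 to 1133 in knockout libraries against 867 to 1082 in wildtype libraries for platelets. Neither list had a gene passing by limma. Of B lymphocyte genes 3 were lower at an unadjusted p under 0.05, of platelet genes 2 lower and 1 higher. Over all genes the shares were 9.20% lower and 10.8% higher. Ppbp, a platelet chemokine gene, was 14.2-fold lower and Itgb3, also made in other cells, 1.55-fold higher in the authors' deposited table.

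Vessel genes had a positive median. Of 12 endothelial genes 0 passed by limma, and the median was 0.36. At an unadjusted p under 0.05, 6 of them were higher, against 10.8% of all genes, and 0 lower, against 9.20%. The sum of the 12 was 18962 to 23361 in libraries labelled knockout and 16413 to 17810 in those labelled wildtype. Flt1 and Kdr, receptors for vascular growth factor, and Vwf, of clotting, were higher by 2.18-, 1.54- and 1.69-fold according to the authors' deposited table. Of the 12 genes, 10 had positive and 2 negative differences. Emcn, the most abundant of them, differed by -0.40 with overlapping groups. Cdh5 differed by 0.40, Pecam1 by 0.014, Esam by -0.053 and Egfl7 by 0.066. Nerve markers were abundant in all libraries, with sums of 726340 to 867334 in knockout libraries, against 624905 to 1101158 in libraries labelled wildtype. Their median was -0.13 over 12 genes (0.04 without wildtype replicate 2). Mbp and Calb2 differed by -0.21 and -0.15. Pmp22, a myelin protein, was the 1 nerve gene lower at an unadjusted p under 0.05, and 0 passed by limma. The authors' deposited table called Pmp22 1.69-fold lower. Proliferation genes had a median of -0.49 over 14 genes, with 4 lower and 1 higher at an unadjusted p under 0.05 and 0 passing by limma; Pcna was 1.47-fold lower in the authors' deposited table. Skeletal muscle genes had a median of -1.0 over 10 genes and sums of 100 to 179 in knockout libraries against 145 to 1138 in wildtype libraries, with wildtype replicate 2 highest; without it the median was -0.20. Bone genes had a median of 0.13 over 10 genes (-0.053 without wildtype replicate 2) and overlapping sums of 11970 to 16746 in knockout libraries against 10673 to 18136 in wildtype libraries. No muscle or bone gene passed by limma, and 1 and 3 of them were lower at an unadjusted p under 0.05, against 9.20% of all genes. Of the muscle genes, the authors' deposited table called Acta1 5.02-fold and Ckm 12.3-fold lower. Wildtype replicate 2 was the highest library for both, at 141 and 204 normalized counts. The 3 bone genes were Bglap, Bglap2 and Ibsp, lower by 4.33-, 4.84- and 2.25-fold in the authors' deposited table and named after their values were seen. Of the 10 bone genes, 4 had negative and 6 positive differences. The most abundant differed by 0.15 for Col1a1, -0.11 for Dmp1, 0.15 for Alpl and 0.11 for Phex, all with overlapping groups.

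**Figure D4:**
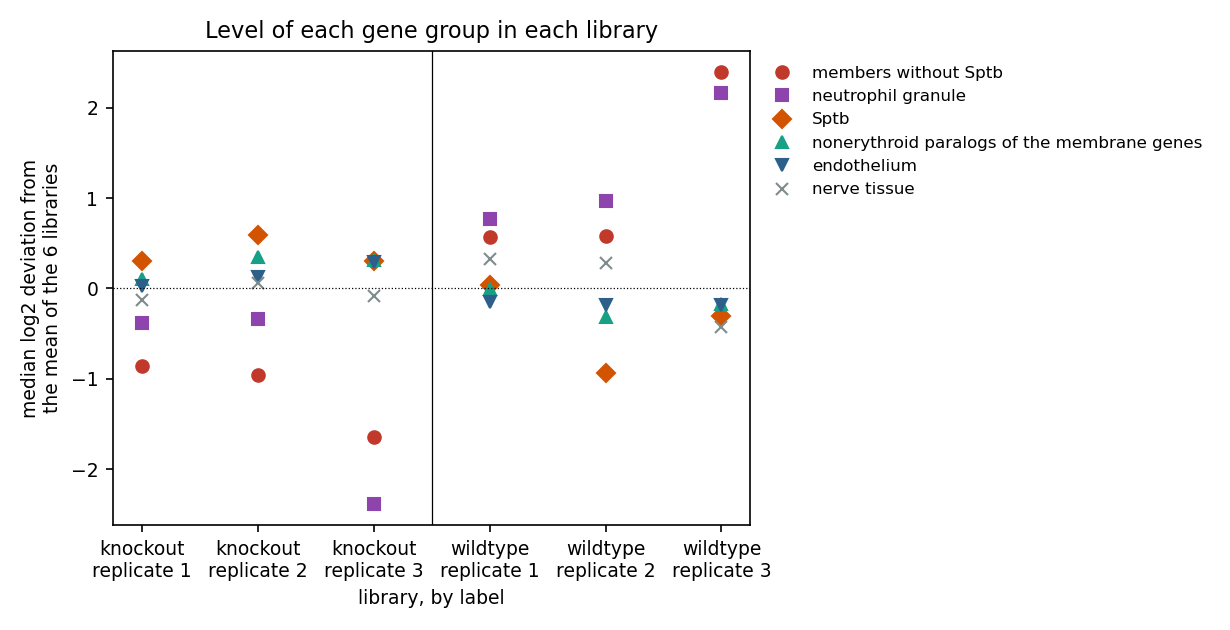
Median log2 deviation of each gene group from its mean over the 6 libraries, with libraries labelled knockout on the left. The 7 members other than Sptb run from -1.64 in knockout replicate 3 to 2.39 in wildtype replicate 3, and neutrophil granule genes from -2.38 to 2.16 in the same libraries.

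The median deviation of the 7 members other than Sptb from their own means was -0.86, -0.96 and -1.64 in the libraries labelled knockout, and 0.57, 0.58 and 2.39 in those labelled wildtype. The gap of 1.81 between wildtype replicate 3 and the next wildtype library exceeded the 1.43 between the nearest libraries of different labels. Neutrophil granule genes had -0.38, -0.34 and -2.38 in knockout libraries, and 0.77, 0.97 and 2.16 in wildtype libraries. Sptb had 0.30, 0.59 and 0.30 in knockout libraries, and 0.034, -0.93 and -0.30 in wildtype libraries. The profile of the globins over the 6 libraries was set against 15261 other genes with a mean of at least 20, by the mean absolute difference of centred log2 values. The median gene lay at a distance of 1.18. Alas2 was the nearest of all, at 0.258, Slc4a1 was at rank 209 (0.792) and Sptb at rank 14367 (1.57). The member globins, Alas2, Slc4a1 and Sptb were all chosen with their difference between the labels known. Their ranks are therefore a description and not a test. Among the 10 nearest genes other than members were Spib (0.264), Mmp8 (0.284), Aldh1a7 (0.309), Ctse (0.327), Cytip (0.337), Bmp15 (0.416), Mmp12 (0.423), Lcn2 (0.438) and Lyplal1 (0.459). Mmp8 and Lcn2 are neutrophil granule genes. Spib encodes a transcription factor of B and dendritic cells, Ctse an aspartic protease, Mmp12 a macrophage elastase and Cytip a regulator of leukocyte adhesion. Lyplal1, with 234, 187 and 223 normalized counts in knockout libraries against 521, 658 and 729 in wildtype libraries, was the 1 gene of the 10 that passed by limma (log2 difference -1.56, SE 0.18, adjusted p = 0.0400).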

How the data were processed

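The deposited table holds 1 whole-number score per gene and sample, gene counts that the authors scaled per sample and rounded; this reading comes from the values. It also holds the authors' signed fold change, a score, and their false discovery rate, which 2061 genes lack. Per the submitters' processing notes, TopHat2, DESeq2, Partek and mm10 were used, in roles not stated; the annotation and strand setting are not given in the sources used here. Library kit and pooling are per the labels' protocols. There were 0 sample columns left unused.

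Values were taken as log2(value + 1); a filter of a mean of at least 1 removed 0 genes. Fold changes on this scale understate low genes; folds given as such are ratios of means. Limma 3.58.1 in R 4.3.3 fitted label alone over 17666 genes with a trend, adjusted by Benjamini-Hochberg, and was tested on simulated data. Mice were separate, per the labels. The members, the 17 gene lists and the rule for named genes were chosen with earlier results of these data known. Beside the members and Cfb, the rule names up to 4 of the most abundant genes of a list when none passes, and the 10 genes nearest to the globin profile; other genes were named after their values were seen. Alternatives were the pseudocount, filter, scaling, trend, replicate block and each library left out. Promoters are RefSeq's and transcripts GENCODE's; 6 of the 8 members with a row had a promoter entry. Some genes of these lists count in their totals and are not reported by name here.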

Additional observations from a re-analysis of the deposited data

How the results depend on the processing

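The 7 negative and 1 positive log2 differences of the members kept their sign under every alternative tried. The medians of 5 lists, none of them called, changed sign: other globins (-0.52) at 0.023, nerve tissue (-0.13) at 0.04 and bone (0.13) at -0.053, each without wildtype replicate 2; bone also at -0.000029 without knockout replicate 3; the membrane list (-0.14) at 0.058 with a filter of a mean of at least 20 and 0.0088 without both replicates 3; and erythroid regulators (-0.016) at 0.016 with that filter, 0.031 without knockout replicate 2 and 0.083 without both replicates 3. Over all genes limma passed 28, and 16 without the trend; without single libraries the count ran from 0 to 419. It was 0 without knockout replicate 1, 2 or 3, 87 without wildtype replicate 1, 1 without wildtype replicate 2 and 419 without wildtype replicate 3. Members passing numbered 0, and 0 to 3 without single libraries, the 3 being without wildtype replicate 3. The median log2 difference of the members was -2.24, and -2.50 to -1.73 without single libraries. The ratio of globin shares, wildtype over knockout label, was 5.20, and 3.21 to 6.26 without single libraries. The log2 difference of the alpha to beta ratio was 0.44, and 0.28 to 0.57 without single libraries. With both knockout replicate 3 and wildtype replicate 3 left out, an alternative chosen after seeing the data, 67 genes and 3 members passed, the share ratio was 2.89 and the alpha to beta difference 0.13. Same-numbered libraries deviated together with correlations of -0.034, 0.0859 and 0.201, so they share only a number; with the replicate block 7 genes and 0 members passed. Over all alternatives, 51 of 64 values of the main results stayed within limits that differed by result. The limit was a set fold for the counts of genes, and the pooled SD for the member median and the globin share. For the alpha to beta ratio it was the sign alone, so a difference of 0.13 in place of 0.44 counts as within it. The causes of these changes were not tested. Depth is unknown, so values of Epb42, Gata1 and others listed at 0 set no floor.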
